A study of Mus musculus with 2 samples.

Results

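The oxygen-sensing pathway of the embryonic mouse liver was described through 10 genes chosen by name: the hypoxia-inducible factor (HIF) subunits Hif1a, Epas1 and Arnt, the oxygen sensors Egln1, Egln2 and Egln3 with the ubiquitin ligase subunit Vhl, and the target genes Bnip3, Ankrd37 and Adm. These were 10 of the 43346 mouse genes in the deposited tables. The rule for choosing them uses gene names and no measured value, but the choice was made with earlier results of these data known. Total RNA was taken from livers at embryonic day 12.5 of the B6NCrl strain, with both sexes mixed. The samples formed 1 group of 2 libraries, replicate 1 (120 pooled embryos) and replicate 2 (88 pooled embryos), each made from 10 ng of RNA with control spike-ins. No treatment, oxygen level or second tissue was included, so the data describe levels and the difference between the pools, and no p-value was computed.

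HIF is a transcription factor made of an oxygen-labile alpha subunit and the stable partner ARNT. When oxygen is plentiful, the EGLN dioxygenases hydroxylate prolines of the alpha subunit, VHL binds the hydroxylated protein and directs it to the proteasome. When oxygen is scarce the alpha subunit persists, pairs with ARNT and binds the DNA core RCGTG near target genes. This control acts largely on protein stability, which RNA levels do not measure. In the embryo the liver is the main site of red cell formation, and erythropoietin, the hormone that drives it, is a classical HIF target.

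Because HIF binds RCGTG, the DNA around the start of each gene was searched for ACGTG and GCGTG on both strands. RefSeq windows (GRCm38.p6, 250 bases before to 50 after the start) were found for 9 of the 10 genes, among them 2 windows for Egln2, and Epas1 had no entry. The sequences of Egln1, Egln3, Bnip3, Ankrd37 and Adm are shown, since these 5 genes are known to be induced by hypoxia and differ in the motifs they hold. They run 5′ to 3′ on the strand of the gene, and capitals mark every match to either motif on either strand.
Egln1 chr8:124949205-124949504 (minus strand): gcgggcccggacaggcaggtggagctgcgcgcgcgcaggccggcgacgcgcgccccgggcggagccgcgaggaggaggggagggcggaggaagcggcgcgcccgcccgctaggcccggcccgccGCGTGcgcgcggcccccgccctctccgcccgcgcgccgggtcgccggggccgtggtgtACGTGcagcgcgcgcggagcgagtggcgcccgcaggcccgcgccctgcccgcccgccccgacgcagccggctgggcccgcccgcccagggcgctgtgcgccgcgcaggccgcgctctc
Egln3 chr12:54203825-54204124 (minus strand): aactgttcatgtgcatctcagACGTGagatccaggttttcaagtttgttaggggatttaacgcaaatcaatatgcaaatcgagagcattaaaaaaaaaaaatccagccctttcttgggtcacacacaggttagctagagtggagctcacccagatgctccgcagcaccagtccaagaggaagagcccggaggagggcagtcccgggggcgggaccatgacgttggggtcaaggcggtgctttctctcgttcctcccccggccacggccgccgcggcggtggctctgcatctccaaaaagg
Bnip3 chr7:138909457-138909756 (minus strand): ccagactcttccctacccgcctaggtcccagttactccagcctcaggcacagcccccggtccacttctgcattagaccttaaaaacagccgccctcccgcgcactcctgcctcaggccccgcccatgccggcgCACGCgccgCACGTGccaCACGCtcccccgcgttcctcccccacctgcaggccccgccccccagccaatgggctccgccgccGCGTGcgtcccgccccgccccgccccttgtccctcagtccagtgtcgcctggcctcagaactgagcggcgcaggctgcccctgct
Ankrd37 chr8:45999801-46000100 (minus strand): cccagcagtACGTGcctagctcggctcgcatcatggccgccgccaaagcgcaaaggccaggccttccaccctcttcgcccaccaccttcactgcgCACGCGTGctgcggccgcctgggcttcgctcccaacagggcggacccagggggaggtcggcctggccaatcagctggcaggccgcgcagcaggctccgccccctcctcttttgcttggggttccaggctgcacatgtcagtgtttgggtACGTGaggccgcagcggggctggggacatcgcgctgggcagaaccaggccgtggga
Adm chr7:110627407-110627706 (plus strand): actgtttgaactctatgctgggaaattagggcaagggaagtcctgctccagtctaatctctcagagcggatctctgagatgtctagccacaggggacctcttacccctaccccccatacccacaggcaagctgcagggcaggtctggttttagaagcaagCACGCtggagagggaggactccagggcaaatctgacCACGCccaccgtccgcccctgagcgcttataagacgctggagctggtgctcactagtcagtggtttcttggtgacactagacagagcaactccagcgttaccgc
ACGTG was present in the windows of 6 of these 9 genes, GCGTG in 6 and at least 1 of them in 8. Across all 32851 windows of that length, ACGTG was present in 19.6% and GCGTG in 32.4%, and among the 9690 windows with at least 60% G+C the shares were 26.5% and 59.2%. These shares are per window, while the counts above are per gene, with the 2 windows of Egln2 pooled. No share for either motif together was available, so nothing is read from the 8 genes. The Bnip3 window held ACGTG on both strands, starting 107 and 108 bases before the start, which is 1 palindrome, CACGTG, counted once for each strand. The Ankrd37 window held ACGTG 241 and 6 bases before the start, and the Egln1 window held it 68 bases before. The Egln3 window held ACGTG 229 bases before the start and no GCGTG. The Adm window held no ACGTG, and its GCGTG matches lay on the minus strand, 90 and 54 bases before the start. Hif1a and Egln2 also held ACGTG, Arnt held GCGTG alone, and Vhl held neither. A match describes these letters and is not a binding site.

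RNA levels were read as TPM, the authors' transcript abundance scaled by length to a fixed total per library, which allows genes to be set side by side within a library. The libraries held 37.6 M and 34.7 M expected counts in replicates 1 and 2. Spike-ins took 2.94% and 3.19% of them, and globin RNAs took 25.58% and 26.16% of the TPM. The tissue label was checked against marker genes, and all 6 hepatoblast and all 6 erythroid markers reached at least 1 TPM in both libraries, the limit used here for detection. All 6 endothelial, all 4 macrophage and all 4 stellate or mesenchymal markers were detected too, as were 3 of 4 heart markers, and 0 of 4 kidney or adrenal markers. The heart markers summed to 22.3 and 23.91 TPM, against 8147.61 and 7983.32 TPM for the hepatoblast markers in replicates 1 and 2. Most of the heart sum was Myl7, at 19.54 and 18.94 TPM. That is above the hepatoblast marker Hnf4a, at 13.4 and 13.09 TPM, and below the other hepatoblast markers. Whether heart tissue contributed was not tested. These libraries mix hepatoblast, erythroid, endothelial, macrophage and stellate or mesenchymal cells. Fewer cells of a type and less RNA per cell therefore cannot be told apart. Each value of replicate 1 is given before that of replicate 2, and errors are SD over n = 2 libraries.

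All 10 genes were detected, but over a wide range of levels. Of all 43346 mouse genes 12841 were detected, which is 54.6% of the 23500 with TPM above 0 in either library. Bnip3 was the most abundant, Egln2, Hif1a and Arnt stood at moderate levels, and Epas1 was the lowest. The median of the 10 was 9.8 TPM, beside a median of 12.7 TPM over the 12841 mouse genes detected in both libraries. The order of mean TPM was Bnip3, Egln2, Hif1a, Arnt, Vhl, Ankrd37, Adm, Egln1, Egln3 and Epas1, and it was the same in each library. Ankrd37 and Adm were the closest neighbours in relation to their spread, at 8.1 ± 0.438 and 7.3 ± 0.651 TPM, and were not separated by it. That order holds for TPM over all transcript models of a gene. Over models annotated as protein-coding, Adm stood above Ankrd37, at 7.38 and 6.55 TPM against 5.18 and 3.63 TPM. In replicate 2 Ankrd37 then also fell below Egln1, at 3.81 TPM.

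**Figure D1:**
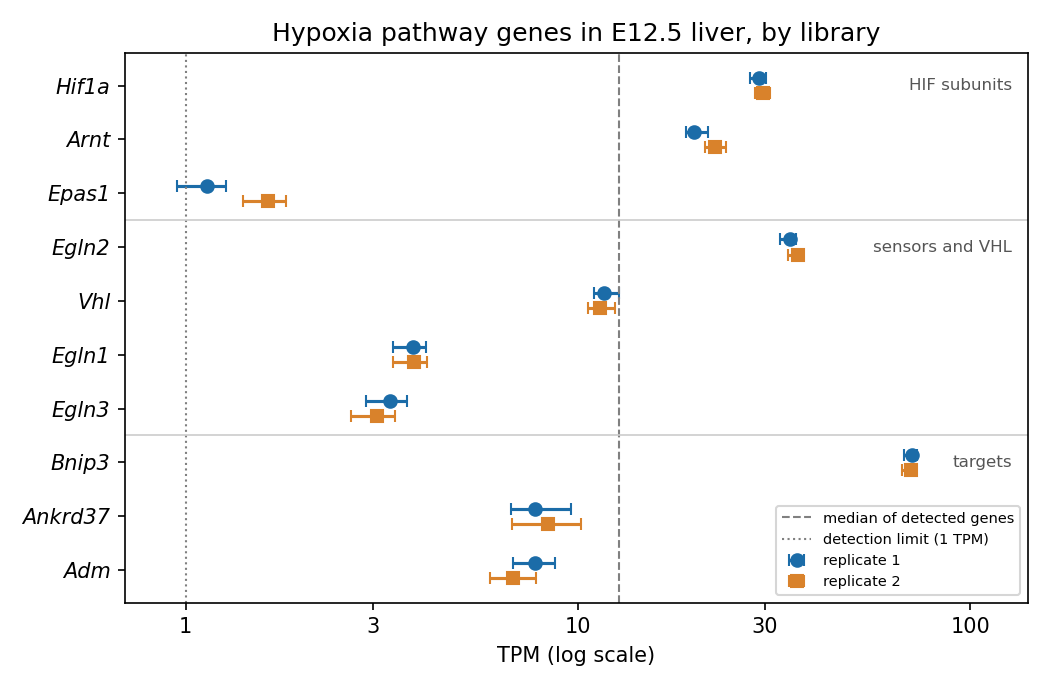
TPM (log axis) of each of the 10 genes in replicate 1 and replicate 2, with points for the libraries and bars for the TPM bounds the authors deposited, whose level is not stated. The bounds of Epas1, 0.952 to 1.27 TPM in replicate 1 and 1.40 to 1.80 TPM in replicate 2, do not overlap.

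Hif1a was the main alpha subunit at the RNA level. Hif1a (ENSMUSG00000021109.9) encodes HIF-1alpha, which drives glycolytic genes among others, and lies at chr12:73901375-73947530 on the plus strand (mm10). It measured 29.02 and 29.66 TPM (29.34 ± 0.453) from 3858.3 and 3701.4 expected counts, and stood at percentile 70.0 of the detected genes. The libraries were close, at a ratio of 0.978 with a 95% counting interval of 0.935 to 1.02.

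Epas1 RNA was scarce. Epas1 (ENSMUSG00000024140.9) encodes HIF-2alpha, the subunit through which adult liver and kidney control erythropoietin and which is abundant in endothelium, and lies at chr17:86753700-86833410 on the plus strand. It measured 1.13 and 1.62 TPM (1.375 ± 0.346) from 185 and 246 expected counts, at percentile 3.4. Replicate 1 was the lower library, and its deposited bounds lay below those of replicate 2. Hif1a thus exceeded Epas1 by 25.7 times in replicate 1 and 18.3 times in replicate 2 (22.0 ± 5.21), a gap far wider than the spread between libraries.

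Arnt (ENSMUSG00000015522.14), the shared partner on chr3:95434388-95497240 (plus strand), stood somewhat below Hif1a. It measured 19.81 and 22.3 TPM (21.05 ± 1.76) from 2275 and 2273 expected counts, so Hif1a exceeded it 1.40 ± 0.0954 times. The TPM of replicate 1 was lower while the counts were nearly equal, and the effective length the authors used for Arnt was 3648 bases in replicate 1 and 3498 bases in replicate 2.

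Of the 5 other HIF subunits and coactivators listed, 4 were detected (median level 10.56 TPM). Hif3a, which encodes another alpha subunit with splice forms that can restrain HIF, measured 19.54 and 18.17 TPM. Its level was 14.3 ± 4.3 times that of Epas1, and of the summed alpha-subunit TPM Hif1a held 59.2% ± 1.12, Hif3a 38.03% ± 1.82 and Epas1 2.78% ± 0.708. Of the Hif3a TPM, 16.9% and 15.1% lay on Hif3a-203, a model of 374 bases with 28.6 and 22.1 expected counts. The longest model, Hif3a-202, measured 8.44 and 8.64 TPM. Cited2, which competes with HIF-alpha for the coactivators CBP and p300, was the highest of the list at 30.56 and 29.56 TPM, and Crebbp, which encodes CBP, measured 10.64 and 10.48 TPM. Arnt2, an ARNT paralogue best known from neurons, was below the detection limit at 0.50 and 0.59 TPM.

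Among the prolyl hydroxylases, Egln2 made up most of the RNA. Egln2 (ENSMUSG00000058709.7) encodes PHD1 and lies at chr7:27158658-27166802 on the minus strand. It measured 34.69 and 36.31 TPM (35.5 ± 1.15) from 2119 and 2087 expected counts, at percentile 74.2. Egln1 (ENSMUSG00000031987.5), which encodes PHD2, the hydroxylase that sets HIF-1alpha stability in most cells, lies at chr8:124908587-124949324 (minus strand) and measured 3.79 and 3.81 TPM (3.8 ± 0.0141) from 408 and 379 expected counts. Egln3 (ENSMUSG00000035105.5), which encodes the strongly hypoxia-inducible PHD3, lies at chr12:54178981-54203860 (minus strand) and measured 3.31 and 3.07 TPM (3.19 ± 0.17) from 267 and 229 expected counts. Both were well below Egln2 in each library.

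Egln2 held 83.01% and 84.07% of the summed Egln TPM (83.5% ± 0.75), Egln1 8.95% ± 0.175 and Egln3 7.51% ± 0.574. Egln2 exceeded Egln1 by 9.34 ± 0.267 times and Egln3 by 11.2 ± 0.952 times. Egln1 exceeded Egln3 by 1.15 times in replicate 1 and 1.24 times in replicate 2, so these 2 genes were close. The order of the 3 enzymes was the same in each library.

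**Figure D2:**
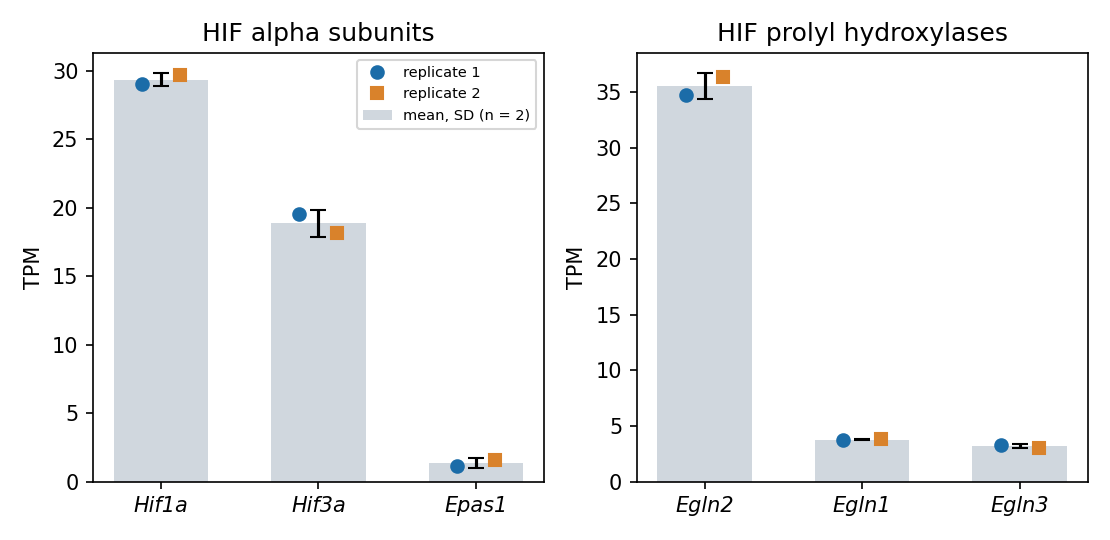
TPM of the HIF alpha subunits (left) and the HIF prolyl hydroxylases (right), with points for replicate 1 and replicate 2 and bars for the mean with its SD (n = 2). Hif1a and Egln2 are the highest of their families in both libraries, and Epas1 averages 1.375 TPM.

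Vhl (ENSMUSG00000033933.9), the substrate-binding subunit of the ubiquitin ligase, lies at chr6:113623959-113631633 (plus strand) and was even between the pools. It measured 11.64 and 11.36 TPM (11.5 ± 0.198) from 987 and 891 expected counts, at percentile 47.3. Of the genes for the ligase built around it, 3 were far more abundant as RNA. Elob (elongin B) measured 473.29 and 461.52 TPM, Eloc (elongin C) 246.78 and 247.09 TPM and Rbx1, the RING subunit, 122.32 and 135.7 TPM. Elob exceeded Vhl 40.6 ± 0.024 times. These elongins and Rbx1 also serve other complexes. Cul2, the scaffold, measured 46.43 and 45.62 TPM over all models, but 15.61 and 16.85 TPM over its protein-coding models, which is closer to Vhl. Of the 8 other hydroxylase and VHL complex genes, 7 were detected (median level 35.58 TPM), and P4htm, a transmembrane prolyl hydroxylase, was below the limit in replicate 1, at 0.92 and 1.18 TPM. Hif1an, which encodes the asparagine hydroxylase that blocks coactivator binding, exceeded Vhl 1.38 ± 0.0348 times over all models. Its protein-coding model measured 13.01 and 13.13 TPM, which is closer to Vhl.

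Of the 3 target genes, Bnip3 was far above Ankrd37 and Adm in RNA level. Bnip3 (ENSMUSG00000078566.4) encodes a protein of the mitochondrial outer membrane that recruits autophagosomes, and lies at chr7:138890836-138909519 on the minus strand. It measured 71.09 and 70.48 TPM (70.78 ± 0.431) from 3572.2 and 3338.1 expected counts, at percentile 86.3, and was the most even of the target genes. Ankrd37 (ENSMUSG00000050914.11) encodes an ankyrin-repeat protein and lies at chr8:45996902-46005707 on the minus strand. The models quantified for it reach only to position 45999867. It measured 7.79 and 8.41 TPM (8.1 ± 0.438) from 184.9 and 157.4 expected counts. Adm (ENSMUSG00000030790.10) encodes the vasodilator peptide adrenomedullin and lies at chr7:110627661-110629820 on the plus strand. It measured 7.76 and 6.84 TPM (7.3 ± 0.651) from 301 and 247 expected counts, slightly higher in replicate 1.

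Bnip3 acts beside its relative Bnip3l (NIX), which clears mitochondria from maturing red cells. Over all transcript models, Bnip3l measured 341.54 and 327.88 TPM and exceeded Bnip3 by 4.80 and 4.65 times (4.73 ± 0.108). Most of that TPM was assigned to models that the annotation calls processed transcripts, Bnip3l-205 at 141.64 and 141.47 TPM, Bnip3l-204 at 108.17 and 98.1 TPM and Bnip3l-206 at 44.19 and 39.8 TPM. Its main protein-coding model, Bnip3l-201, measured 44.75 and 45.55 TPM. TPM is scaled by length, and these processed transcripts have 789, 354 and 446 bases, against 3238 for Bnip3l-201. By expected counts, protein-coding models held 49.9% and 50.9% of Bnip3l. By TPM of protein-coding models alone, the order was the opposite, with Bnip3l at 0.649 and 0.657 times Bnip3 (0.653 ± 0.00559). By expected counts, Bnip3l-201 stood higher, at 4421.7 and 4166.2 against 3522.0 and 3316.9 for Bnip3-201. How the relatives rank therefore depended on which models were counted and on the scaling by length. Of the 9 mitophagy genes listed, 8 were detected (median level 33.81 TPM). Gabarap, an autophagosome-coat protein gene, measured 226.75 and 234.95 TPM and Gabarapl2, its relative, 128.86 and 137.06 TPM.

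**Figure D3:**
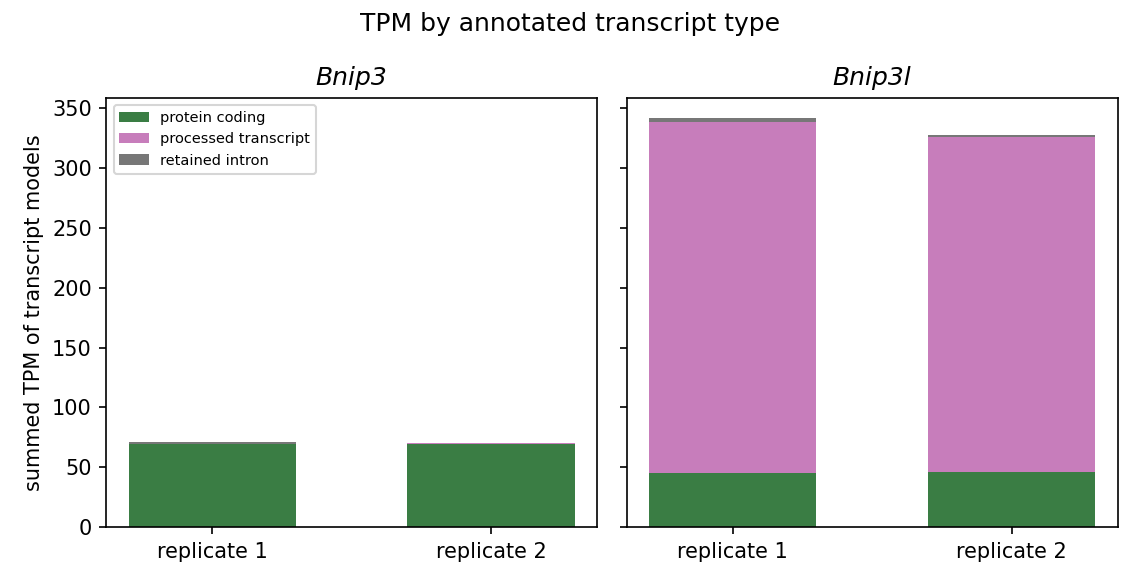
TPM of Bnip3 and Bnip3l in replicate 1 and replicate 2, split by the annotated type of the transcript models. Bnip3l is the higher gene over all models, and Bnip3 is the higher gene over protein-coding models.

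Adrenomedullin signals through the receptor Calcrl paired with a RAMP protein. Calcrl measured 19.19 and 21.33 TPM and Ramp2 28.47 and 29.09 TPM, while Ramp3 stood at 0.20 and 0.45 TPM, from 7 and 15 expected counts. Ackr3, an atypical receptor that binds adrenomedullin, measured 7.87 and 9.05 TPM, and the related peptide gene Calca measured 0.07 and 0.09 TPM. Of these 7 genes, 5 were detected (median level 3.68 TPM).

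Of the wider list of 30 HIF target genes, 28 were detected, and the median level was 14.89 TPM. Ldha, the lactate dehydrogenase A subunit, was the highest at 1554.6 and 1455.5 TPM, followed by Mif, a cytokine, at 1251.93 and 1181.24 TPM. Bnip3l came next over all transcript models. Over protein-coding models alone it averaged 45.24 TPM, below Slc2a1 of the same list at 288.2 TPM, among others. Cxcr4, a chemokine receptor, was below the limit at 0.76 and 0.80 TPM. Epo, chosen after its values were seen because it is the hormone of this pathway, measured 2.02 and 1.45 TPM from 40 and 26 expected counts, too few for the comparison of pools.

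The pools were compared by the log2 ratio of TPM, replicate 1 over replicate 2, after adding 0.1 TPM. A gene was counted as differing when the ratio passed 1.2-fold either way and its mean expected count was at least 50. With 1 library per pool no spread within a pool could be estimated, so this has no replicate check, and the intervals given cover counting error only. Of 13017 genes tested, 12.3% passed that limit, and 6.85% passed it with the lower value in replicate 1. Epas1 was the only 1 of the 10 genes to pass, at a log2 ratio of -0.48. A share of 1 in 10 is near the background, so it is not a result about these genes. Its TPM ratio was 0.698 with a 95% counting interval of 0.573 to 0.848, and it did not pass a limit of 1.5-fold. The endothelial markers, of a cell type known for Epas1, were all detected, and they summed to 90.97 and 88.36 TPM, at a ratio of 1.03. Of these 6 markers, Stab2 and Kdr were higher in replicate 1, the other 4 (Pecam1, Cdh5, Tek and Lyve1) were lower there, as Epas1 was, and their median log2 ratio was -0.04. The stellate and mesenchymal markers, all detected, summed to 301.79 and 317.85 TPM, and the heart markers to 22.3 and 23.91 TPM. Of the 4 heart markers, Myl7 measured 19.54 and 18.94 TPM, Tnnt2 1.33 and 2.90 TPM, Nppa 1.12 and 1.70 TPM and Myh6 0.31 and 0.37 TPM. Their part in the Epas1 difference was not tested.

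The other 9 genes had log2 ratios from -0.17 for Arnt to 0.18 for Adm. The Arnt interval, 0.838 to 0.942, excluded 1, and those of the other 8 did not. That interval takes the effective lengths of Arnt as fixed, though they differed between the libraries. The deposited bounds of Arnt overlap, at 18.9 to 21.4 TPM in replicate 1 and 21.1 to 23.9 TPM in replicate 2. From TMM-scaled counts the Arnt log2 ratio was -0.11. The direction of Ankrd37 was not settled, since its log2 ratio was -0.11 from TPM and 0.12 from TMM-scaled counts. Of the 27 wider HIF target genes tested, 2 passed the limit with the higher value in replicate 1 and 3 with the lower value, beside the 12.3% of all genes that passed either way and the 6.85% that passed with the lower value. The list's median log2 ratio was 0.07, and with so few genes past the limit nothing is read from their number. The higher were Angptl4, a lipoprotein lipase inhibitor, at 18.02 and 14.81 TPM, and Stc2, a secreted glycoprotein, at 1.55 and 1.22 TPM. The lower were Ddit4, an mTORC1 inhibitor, at 4.77 and 5.82 TPM, Bhlhe40, a transcriptional repressor, at 3.44 and 5.28 TPM, and Lox, a collagen cross-linking enzyme, at 3.80 and 4.92 TPM. For Bhlhe40 the expected counts were 326 and 353, a ratio of 0.924. That ratio is not scaled for depth, which was 37.6 M and 34.7 M expected counts, so 1 does not mark an even level. The effective length of Bhlhe40 also differed, at 3014 bases in replicate 1 and 2294 bases in replicate 2. No gene of the other pathway lists passed.

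**Figure D4:**
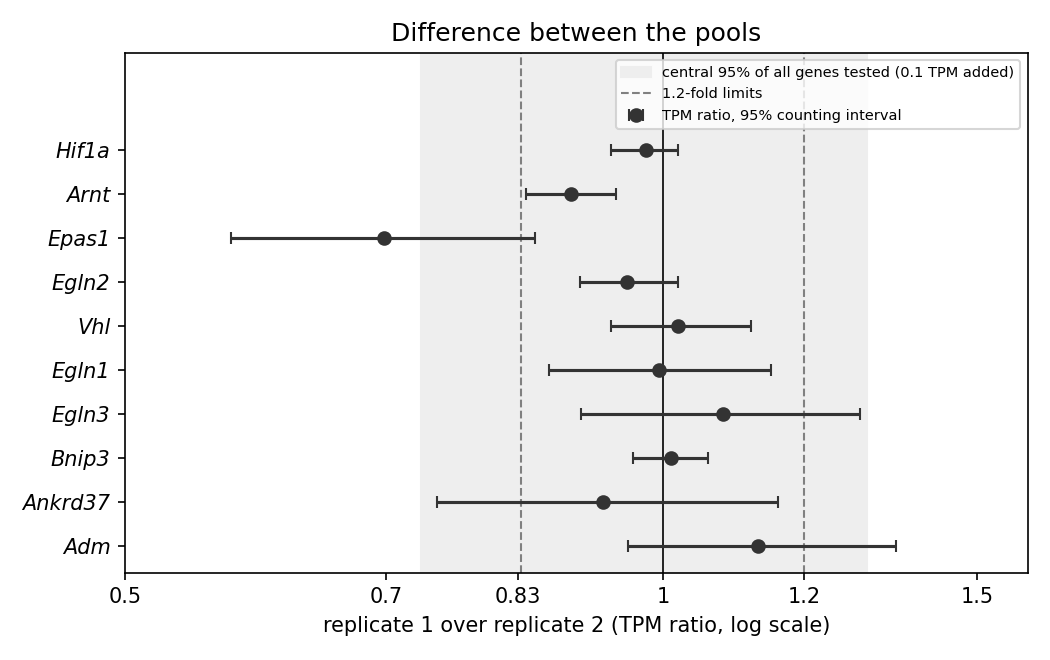
TPM ratio of replicate 1 over replicate 2 (log axis) for the 10 genes with exact 95% counting intervals, beside the range that holds the central 95% of all genes tested, computed with 0.1 TPM added. Epas1 lies lowest, and the other 9 genes lie inside the 1.2-fold limits.

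The deposited transcript tables split the 10 genes into 39 models. In 7 genes a single model held at least 5% of the TPM, and Hif1a, Arnt and Ankrd37 used several. Epas1, Egln1 and Egln3 have 1 model each in these tables. The median share of protein-coding models over the 10 genes was 97.6%.

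Hif1a was split between protein-coding models with different start positions. Hif1a-201 held 73.5% and 72.2% of its TPM, and Hif1a-202, which starts 6529 bases upstream and shares 13 of its 15 exons with Hif1a-201, held 17.9% and 20.7%. A retained-intron model held 4.89% and 4.59%. The shares were close between the libraries. The Hif1a promoter window that was searched lies at the downstream start. That gene also shares 330 exon bases with the antisense gene Gm15283, which was assigned only 9.7 and 7.6 expected counts. Reads of overlapping genes cannot be told apart with certainty, because the labels do not state whether the libraries kept strand.

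Arnt-202 held 67.5% of Arnt TPM in replicate 1 and 58.0% in replicate 2, followed by Arnt-203 at 12.9% and 14.6%. Arnt-205, with 21 exons, held 6.0% and 10.3%, and the short model Arnt-204 6.16% and 5.87%. Of these 4 models, Arnt-202 had the largest difference in share. The deposited bounds of Arnt-205 were 0.529 to 2.13 TPM in replicate 1 and 1.35 to 3.41 TPM in replicate 2, and they overlap. Retained-intron models of Arnt held 7.52% and 9.87%.

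Ankrd37 was the gene with the least certain make-up. Its protein-coding model Ankrd37-201 held 66.6% of the TPM in replicate 1 and 43.1% in replicate 2 (54.8% ± 16.6), while its retained-intron models held 29.8% and 48.0%. Ankrd37-204, a retained-intron model, was assigned 6.0 and 23.1 expected counts, and its deposited bounds, up to 2.24 and 4.24 TPM, overlap. The bounds of Ankrd37-201, 3.35 to 5.99 TPM in replicate 1 and 1.83 to 4.71 TPM in replicate 2, overlap as well. In the later annotation used for coordinates, the gene shares 57 exon bases on the opposite strand with Ufsp2, which measured 35.23 and 28.37 TPM. There it shares 349 with Lrp2bp, which was assigned 1.1 and 6.6 expected counts. These overlaps need not all lie in the models quantified here.

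**Figure D5:**
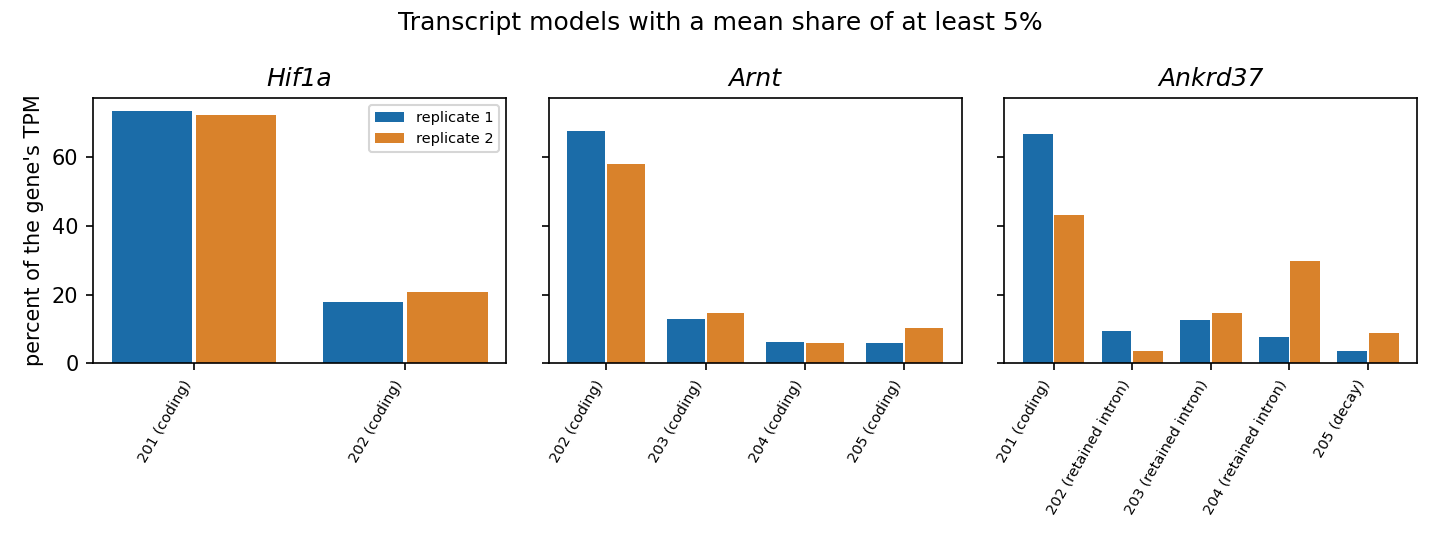
Percent of the TPM of Hif1a, Arnt and Ankrd37 held by each transcript model (numbered below the bars, with its annotated type) in replicate 1 and replicate 2, for models with a mean share of at least 5%. The Hif1a shares lie close together, while Ankrd37-201 holds 66.6% in replicate 1 and 43.1% in replicate 2.

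Among the genes with 1 main model, Bnip3-201 held 96.2% ± 1.76, and Egln2-201 95.2% and 95.6%. Adm-201 held 95.1% and 95.8%, but its deposited bounds ran from 0.18 to 7.34 TPM in replicate 1, so the division between its models was uncertain. The gene-level bounds of Adm were narrower, 6.83 to 8.73 TPM in replicate 1 and 5.97 to 7.82 TPM in replicate 2. Over the 58 distinct genes of the pathway lists, 39 had at least 90% of their TPM in protein-coding models. The 8 genes below 50% were Ep300, Cul2, Bnip3l, Pdk1, Angptl4, Ramp2, Map1lc3a and Gabarapl2, so their gene-level TPM, Angptl4 among the genes past the limit, rested mostly on models not annotated as protein-coding.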

How the data were processed

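Total RNA libraries of 2 embryo pools were analysed. Per the labels' protocols, RNA came from an Ambion mirVana kit, was of a size above 200, and a SMARTer low-input kit manual is linked. Each library was quantified alone on mm10 with GENCODE M4, per the file headers, and names of the aligner and quantifier were not given in the sources used here. Deposited expected counts are estimated reads, not normalized. The deposited TPM is scaled by length and sums to a fixed total, spike-ins included. The deposited FPKM is scaled by effective length and depth. The authors' deposited TPM bounds, a signal of unstated level, and the deposited percent of each gene's TPM per transcript describe uncertainty and models.

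Symbols were matched by unversioned identifier for 42462 of 43346 genes. Coordinates (1-based) and transcript types came from GENCODE M21, on the same assembly. The intervals were exact 95% Clopper-Pearson, from rounded expected counts. PCR reads are not independent molecules, so intervals and floors cover counting error only. A floor of 3 counts at 1 kb was 0.0953 and 0.103 TPM. Scaling alternatives used TMM (edgeR 4.0.16) and size factors (DESeq2 1.42.0) in R 4.3.3 on rounded counts. The ratio script was tested on simulated data. The pools are separate samples of 1 group, so SDs measure the spread between these pools only. All 10 members were named. Of each other list the 3 highest by mean TPM, those below 1 TPM in a library and those past 1.2-fold were named, except some that are not reported here. The members and lists were chosen with earlier results of these data known.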

Additional observations from a re-analysis of the deposited data

How the results depend on the processing

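Over 44 results and 194 alternatives, 160 stayed within the spread (1 SD, the counting interval of a ratio, or 1.5 times a count), and 34 moved. Among those that moved was the ratio of Bnip3l to Bnip3, whose order was the opposite by TPM of protein-coding models. Some alternatives could not move. A mean of 2 libraries stays within 1 SD when either is left out, and rescaled FPKM and summed transcript TPM restate the same quantity. Protein-coding shares of single-model genes are fixed as well. The number that stayed is therefore not a measure of robustness. No paired analysis was possible because the design has 1 group. The number of the 10 genes past the fold limit was 3 at 1.1-fold (Epas1, Arnt and Adm, with 32.2% of all genes past it), 0 at 1.5-fold and 0 at 2-fold, 0 among the 5 genes with a mean count of at least 500, and 2 (Epas1 and Adm) with TPM centred on the spike-ins, which moved the median log2 ratio of all genes to 0.12. TMM, DESeq2 size factors, a pseudocount of 0 or 1 TPM and a lower or no count minimum left Epas1 as the 1 gene past the limit. Spike-in centring, which shifts every gene alike, changed the sign of the log2 ratio of Hif1a, Egln1, Egln2 and Ankrd37. TMM and DESeq2 size factors changed that of Bnip3, from 0.01 to -0.01 under TMM, and of Ankrd37. With a detection limit of 10 TPM, 5 of the 10 genes were detected. Rescaling TPM without spike-ins, tRNA entries and globins raised the median gene to 14.26 TPM. By expected counts, Egln2 held 76.64% of the Egln sum and Bnip3l exceeded Bnip3 2.471 times. By TPM of protein-coding models, Bnip3l stood at 0.6528 times Bnip3. With a limit of 1% in place of 5%, 6 genes used more than 1 model. With a limit of 5 TPM, 3 adrenomedullin receptor genes were detected. The cause of these moves was not tested beyond the construction of each alternative. Depth limits Epas1, Egln3, Ankrd37 and Adm most, at 301 expected counts or fewer in each library, and 1 library per pool gives no error for the pool ratios.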
